A study of Homo sapiens with 6 samples.

Results

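The set described here holds the plasminogen activators PLAU and PLAT, the activator receptor PLAUR, the serpins SERPINE2, SERPINB2, SERPINB7, SERPINB8 and SERPINB9, and the Kunitz-type inhibitor TFPI2. Its members are fixed by gene symbol, in a set drawn up with earlier results of these data known, and number 9 of the 61806 genes in the deposited table. Of these 9 genes, 8 passed a filter on low counts and were tested, and SERPINB2 did not. In the HMGA2 knockdown lines PLAU was 3.06-fold and 3.53-fold higher than in the control line, and SERPINB9 was 5.64-fold and 26.1-fold higher. SERPINB8 was 1.48-fold and 2.80-fold lower in the same lines. The receptor PLAUR stayed within a much smaller range, with log2 differences of -0.03 and -0.23.

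Urokinase (PLAU) and tissue plasminogen activator (PLAT) are secreted serine proteases that cut plasminogen into plasmin, a protease that degrades fibrin and matrix proteins and activates some matrix metalloproteinases. Urokinase binds its receptor PLAUR at the cell surface, which focuses plasmin formation there. Serpins block their target proteases by forming a covalent complex with them, and the clade B serpins act mostly inside cells. The system is known in breast cancer for its part in tissue invasion, and urokinase has been studied there as a prognostic marker.

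RNA sequencing was performed on MDA-MB-231, a human triple-negative breast cancer cell line, after stable knockdown of HMGA2, a chromatin protein that binds AT-rich DNA. The groups were shNC (control short hairpin RNA), shHMGA2-1 and shHMGA2-2, which carry different short hairpin RNAs against HMGA2, with 2 libraries of each and no further treatment named in the labels. According to the methods the knockdown cells were infected with lentivirus, selected with puromycin and grown from a single clone, which is not stated for shNC. Thus each group is 1 line, and differences between lines and effects of the short hairpin RNAs cannot be told apart. The library names mark the controls as WT and the samples titled shHMGA2-1 as SH2, and the titles were followed. Library totals ran from 16461178 to 17167293 counts, and both libraries of a line were further apart than sampling noise allows (chi-square per degree of freedom 2.03 to 6.21). HMGA2 itself went from 2126 and 2161 counts in shNC to 858 and 989 (shHMGA2-1) and 435 and 482 (shHMGA2-2). Of 7 markers of basal and mesenchymal breast cancer cells none was at or under 3 counts in all libraries, and their summed level was 1042 to 1066 FPKM (the count divided by exonic length and by the library total) in shNC, 893 to 913 in shHMGA2-1 and 905 to 909 in shHMGA2-2. Among markers of other cell types, 1 of 10 luminal and epithelial, 4 of 10 leukocyte, 3 of 7 endothelial and 4 of 7 fibroblast genes were at or under 3 counts in every library, PGR, PTPRC, CD3E, VWF, TEK, COL1A2 and PDGFRA among them. The other genes of these lists were above that in at least 1 library, such as the keratins KRT8 (1247 to 3417 counts) and KRT18 (1485 to 1947), LCP1 of the leukocyte list (3 to 130), KDR of the endothelial list (44 to 61) and COL1A1 of the fibroblast list (53 to 237). In such bulk samples fewer cells of a type and less RNA per cell cannot be told apart.

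The promoters of 4 members are shown because PLAU and SERPINB9 rose in both knockdown lines, SERPINB8 fell in both, and PLAUR moved little although its protein binds that of PLAU. Each runs from 250 bases before to 50 bases after a transcription start in RefSeq (GRCh38.p14), and is written 5′ to 3′ on the strand of the gene. Capitals mark a TATA box (TATAAA), an AP-1 element (TGANTCA) or a GC box (GGGCGG), searched on both strands. RefSeq gives 2 promoters for PLAU, and that shown, at chr10:73910882-73911181 (plus strand), lies inside the gene's span in the deposited table, which begins further upstream. SERPINB9 is shown at chr6:2903260-2903559 (minus strand), SERPINB8 at chr18:63969831-63970130 (plus strand) and PLAUR at chr19:43670120-43670419 (minus strand).
PLAU: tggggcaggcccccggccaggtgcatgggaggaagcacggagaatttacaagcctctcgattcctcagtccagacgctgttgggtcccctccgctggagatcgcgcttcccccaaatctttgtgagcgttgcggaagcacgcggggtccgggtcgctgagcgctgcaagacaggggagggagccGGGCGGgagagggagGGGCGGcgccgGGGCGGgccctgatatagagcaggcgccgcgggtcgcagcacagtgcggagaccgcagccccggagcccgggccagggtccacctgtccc
SERPINB9: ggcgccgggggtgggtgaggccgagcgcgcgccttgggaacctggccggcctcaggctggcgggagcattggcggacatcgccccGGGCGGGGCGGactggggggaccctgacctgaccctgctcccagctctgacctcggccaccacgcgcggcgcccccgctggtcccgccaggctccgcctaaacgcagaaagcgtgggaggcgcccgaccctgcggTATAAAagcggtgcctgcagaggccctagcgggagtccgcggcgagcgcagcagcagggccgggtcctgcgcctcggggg
SERPINB8: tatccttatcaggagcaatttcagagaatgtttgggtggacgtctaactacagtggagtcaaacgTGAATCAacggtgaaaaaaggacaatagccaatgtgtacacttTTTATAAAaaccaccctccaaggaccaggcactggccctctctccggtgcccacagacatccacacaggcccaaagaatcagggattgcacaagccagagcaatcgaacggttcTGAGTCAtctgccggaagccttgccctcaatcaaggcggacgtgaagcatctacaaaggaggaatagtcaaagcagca
PLAUR: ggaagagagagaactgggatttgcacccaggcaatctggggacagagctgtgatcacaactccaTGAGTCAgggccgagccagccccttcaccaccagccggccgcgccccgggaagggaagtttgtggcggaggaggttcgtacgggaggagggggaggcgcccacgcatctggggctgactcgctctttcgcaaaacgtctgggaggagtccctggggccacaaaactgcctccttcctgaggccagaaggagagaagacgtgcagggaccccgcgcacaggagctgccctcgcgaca

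These windows differed in base composition. That of SERPINB9 was 24.3% A and T with 35 CpG dinucleotides, and that shown for PLAU 30% with 28, against 51.3% with 9 for SERPINB8 and 36% with 18 for PLAUR. The other PLAU promoter (chr10:73910360-73910659, plus strand) was 51.3% A and T, the share of SERPINB8, with 5 CpG dinucleotides and no GC box. The median over all 35116 RefSeq promoters of this length was 41.3% A and T. The SERPINB9 window held a TATA box 30 bases before the start and GC boxes at 165 and 160 bases before it, and the PLAU window shown held 3 GC boxes. The SERPINB8 window held AP-1 elements 185 and 28 bases before the start and a TATA box on each strand at 142 and 140 bases before it, which overlap. The PLAUR window held an AP-1 element at 186 bases before the start. PLAT, on chromosome 8, was left out of the scan of members, while the shares over all promoters had no such exclusion. The 12 RefSeq promoters scanned belonged to the other 8 members, with several each for SERPINB7, PLAU and SERPINE2. Of these promoters 6 held the AP-1 letters and 4 the TATA letters, while 7.71% and 11.5% of all RefSeq promoters did. Genes with several promoters can count more than once. The GC box was present in 45% of all promoters. Among the members it was in both SERPINE2 promoters, those of SERPINB9 and TFPI2 and the PLAU promoter shown. The promoters of SERPINB7, SERPINB2, SERPINB8 and PLAUR and the other PLAU promoter lacked it. The AT-rich letters AATATT occurred in 6.96% of all promoters and, among the members, in a pair of the SERPINB7 promoters. A match is a description of these letters and not a bound site.

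PLAU, which encodes urokinase (ENSG00000122861, chromosome 10, 73909177 to 73917496, plus strand), was higher in every knockdown library than in either control library. It was counted 1425 and 1687 times in the shNC libraries, 5235 and 4814 times in shHMGA2-1 and 5657 and 5971 times in shHMGA2-2. Per length the level was 31.1 ± 3.69 FPKM (SD, n = 2) for shNC, 99.4 ± 5.71 (SD, n = 2) for the shHMGA2-1 line and 119 ± 3.91 (SD, n = 2) for the shHMGA2-2 line. The groups did not overlap, and the knockdown lines lay close to each other compared with their distance from shNC. PLAU rose by a log2 fold change of 1.61 (standard error 0.076) in shHMGA2-1, with an edgeR adjusted p of 2.85e-14. The rise in shHMGA2-2 was 1.82 (standard error 0.076, edgeR adjusted p = 3.27e-16). Between the knockdown lines PLAU was higher in shHMGA2-2 by 0.21 (95% interval 0.06 to 0.36, edgeR adjusted p = 0.0173). This small difference lost its call without shHMGA2-2 replicate 1 (edgeR adjusted p = 0.0768) or replicate 2 (0.143). C10orf55, which overlaps PLAU on the other strand, went from 6 and 16 counts in shNC to 46 and 45 (shHMGA2-1) and 50 and 51 (shHMGA2-2). As the strand setting of the counting is not given, reads of this pair cannot be told apart. C10orf55 held few counts beside PLAU, which does not show how many reads of the shared stretch were left uncounted.

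**Figure D1:**
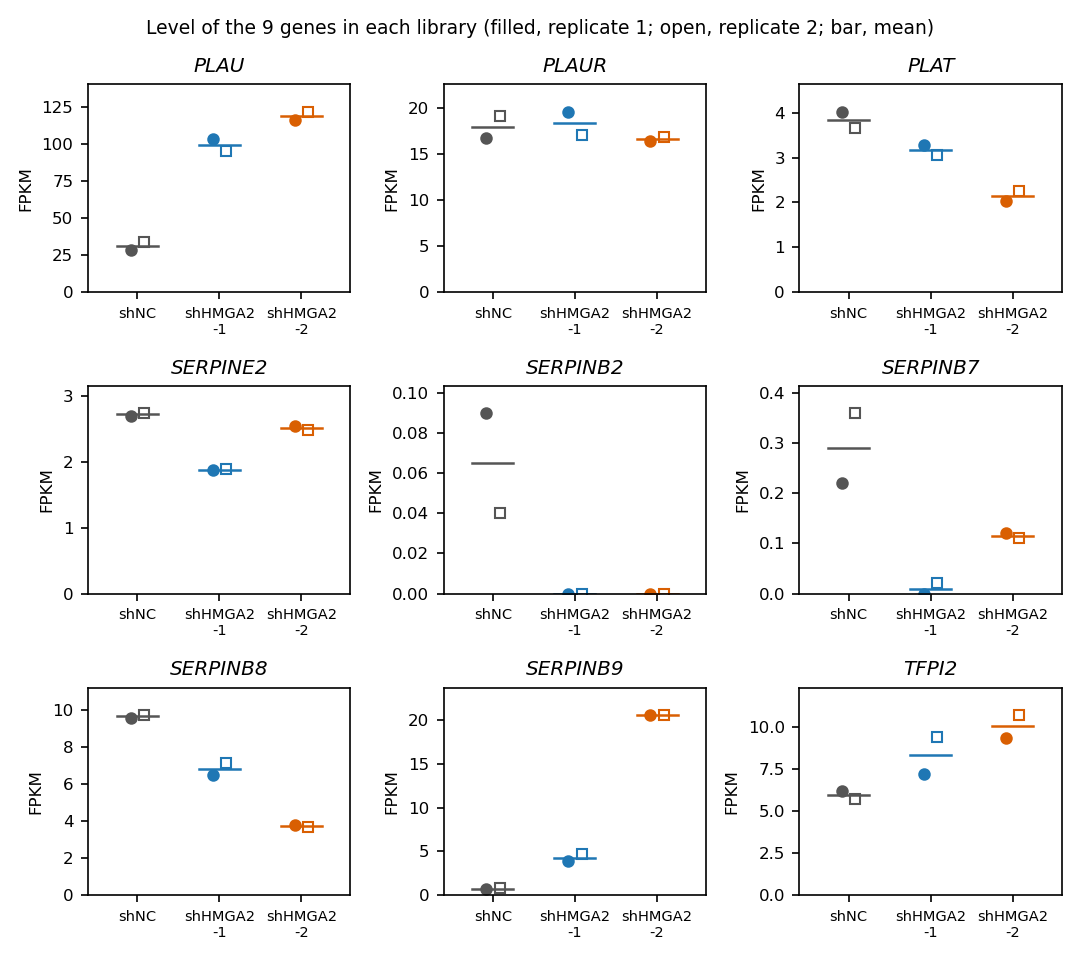
Level of each of the 9 genes in FPKM (linear axes from 0, scaled per gene) in the shNC, shHMGA2-1 and shHMGA2-2 lines; filled and open points are replicates 1 and 2 and bars are means. PLAU and SERPINB9 sit higher in both knockdown lines than in shNC, SERPINB8 and PLAT lower, and the PLAUR points overlap between shNC and shHMGA2-1.

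PLAUR, the urokinase receptor (ENSG00000011422, chromosome 19, 43646095 to 43670547, minus strand), did not rise with its ligand. The shNC libraries held 1271 and 1455 of its counts, those of shHMGA2-1 1504 and 1309, and those of shHMGA2-2 1205 and 1249. The shHMGA2-1 values overlapped those of shNC, and the shHMGA2-2 counts lay below them. In FPKM the shHMGA2-2 libraries (16.4 and 16.9) reached into the range of shNC (16.8 and 19.2). The log2 fold change in shHMGA2-1 was -0.03, with a 95% interval from -0.21 to 0.14 (edgeR adjusted p = 0.805), and it was slightly above 0 with upper quartile scaling (0.0303) and limma (0.0296). Without shNC replicate 2 or shHMGA2-1 replicate 2 it was 0.07 and 0.05. In shHMGA2-2 PLAUR fell by 0.23 on the log2 scale (standard error 0.086, edgeR adjusted p = 0.0233). That call was lost with upper quartile scaling (-0.12, edgeR adjusted p = 0.249), among genes averaging 1 FPKM or more (0.0529), with limma (0.350), and without shNC replicate 2 (0.369) or shHMGA2-2 replicate 1 (0.118) or 2 (0.0991). Upper quartile scaling moved the median of all genes in this comparison from 0.03 to 0.14, so that PLAUR lay below the median under either scaling. Within a library the FPKM of PLAU was 1.69 and 1.75 times that of PLAUR in shNC, 5.26 and 5.56 times in shHMGA2-1, and 7.10 and 7.23 times in shHMGA2-2.

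PLAT, the tissue-type activator (ENSG00000104368, chromosome 8, 42174718 to 42207709, minus strand), moved opposite to PLAU. It was counted 532 and 483 times in the shNC libraries, 439 and 408 times in shHMGA2-1 and 261 and 291 times in shHMGA2-2. The 3 lines did not overlap, with shHMGA2-2 the lowest. PLAT fell 1.94-fold in shHMGA2-2 (log2 fold change -0.96, standard error 0.11, edgeR adjusted p = 6.90e-08). In shHMGA2-1 it was 1.27-fold lower (log2 fold change -0.34, standard error 0.11, edgeR adjusted p = 0.0156). The shHMGA2-1 difference did not pass with DESeq2 (adjusted p = 0.0685), with limma (0.132) or without shNC replicate 1 (edgeR adjusted p = 0.187). Between the knockdown lines PLAT was lower in shHMGA2-2 by a log2 difference of -0.62 (edgeR adjusted p = 6.29e-05). In shNC the FPKM of PLAU was 7.06 and 9.20 times that of PLAT, whereas in shHMGA2-2 it was 57.1 and 54.0 times.

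SERPINE2 (protease nexin-1), which inhibits thrombin, urokinase and the tissue-type activator (ENSG00000135919, chromosome 2, 223975045 to 224039318, minus strand), was lower in shHMGA2-1. The shNC libraries held 410 and 417 of its counts, those of shHMGA2-1 287 and 290, and those of shHMGA2-2 376 and 369. The knockdown lines did not overlap each other or shNC, and shHMGA2-1 lay furthest from shNC. SERPINE2 fell 1.51-fold in shHMGA2-1 (log2 fold change -0.60, standard error 0.11, edgeR adjusted p = 1.65e-04). The log2 difference of -0.23 in shHMGA2-2 (95% interval -0.45 to -0.01) did not pass over all genes (edgeR adjusted p = 0.0716), although it did without shHMGA2-1 replicate 1 (0.0424) or 2 (0.0426). SERPINE2 was higher in shHMGA2-2 than in shHMGA2-1 by 0.37 (edgeR adjusted p = 0.00868). This difference was not called with DESeq2 (adjusted p = 0.0613) or without shHMGA2-2 replicate 1 (edgeR adjusted p = 0.0720).

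SERPINB9, an inhibitor of the cytotoxic protease granzyme B (ENSG00000170542, chromosome 6, 2887270 to 2903309, minus strand), rose most among the members tested, in both knockdown lines. It was counted 48 and 54 times in the shNC libraries, 278 and 330 times in shHMGA2-1 and 1401 and 1417 times in shHMGA2-2. Per length the level was 0.725 ± 0.0636 FPKM (SD, n = 2) for shNC, 4.28 ± 0.523 (SD, n = 2) for the shHMGA2-1 line and 20.6 ± 0.0566 (SD, n = 2) for the shHMGA2-2 line. The lines were far apart and libraries of a line close together. SERPINB9 rose by a log2 fold change of 2.49 (standard error 0.16, edgeR adjusted p = 5.76e-12) in shHMGA2-1 and by 4.70 (standard error 0.14, edgeR adjusted p = 4.50e-19) in shHMGA2-2. SERPINB9 was 4.63-fold higher in shHMGA2-2 than in shHMGA2-1 (log2 difference 2.21, standard error 0.10, edgeR adjusted p = 7.32e-15). The gene is also expressed in leukocytes. Of 10 leukocyte markers 4 were at or under 3 counts in every library, PTPRC, CD3E and CD53 among them, and the summed level was 1.96 to 2.07 FPKM in shNC, 1.11 to 1.39 in shHMGA2-1 and 0.65 to 0.79 in shHMGA2-2. In shNC that sum was mostly LCP1, whose mean went from 1.38 FPKM there to 0.27 in shHMGA2-1 and 0.085 in shHMGA2-2. In the knockdown lines CORO1A was above LCP1, with means of 0.66 and 0.235 FPKM. HCLS1 fell like LCP1, from 21 and 15 counts in shNC to 0 in every knockdown library. Other markers of the list went the other way, with 7 and 10 counts of CORO1A in shNC, 38 and 70 in the shHMGA2-1 libraries and 17 and 20 in those of shHMGA2-2, and with at most 2 counts of ITGAM outside shHMGA2-2 but 16 and 5 there. The part of such RNA in the SERPINB9 values was not tested.

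SERPINB8, an intracellular inhibitor of furin-type proteases (ENSG00000166401, chromosome 18, 63970029 to 64019779, plus strand), fell in both knockdown lines. The shNC libraries held 934 and 952 of its counts, those of shHMGA2-1 641 and 704, and those of shHMGA2-2 360 and 351. The 3 lines did not overlap. The log2 fold change was -0.57 (standard error 0.093, edgeR adjusted p = 3.84e-05) in shHMGA2-1 and -1.49 (standard error 0.099, edgeR adjusted p = 3.41e-12) in shHMGA2-2. SERPINB8 was lower in shHMGA2-2 than in shHMGA2-1 by a log2 difference of -0.92 (edgeR adjusted p = 4.24e-08). Within a library the FPKM of SERPINB9 was 0.0712 and 0.0791 times that of SERPINB8 in shNC, 0.603 and 0.652 times in shHMGA2-1, and 5.42 and 5.62 times in shHMGA2-2. This ratio was chosen after the values were seen and is no separate result. HMSD, a gene on the same strand that overlaps SERPINB8, went from 185 and 184 counts in shNC to 118 and 134 (shHMGA2-1) and 24 and 47 (shHMGA2-2). How reads of the shared stretch were assigned is not given, so the values of both genes are uncertain to that extent.

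SERPINB7 (ENSG00000166396, chromosome 18, 63752935 to 63805376, plus strand) and SERPINB2 (ENSG00000197632, chromosome 18, 63871692 to 63903888, plus strand) were scarce. The shNC libraries held 10 and 16 counts of SERPINB7, those of shHMGA2-1 held 0 and 1, and each shHMGA2-2 library held 5. It passed the filter on low counts only through shNC, where it was highest, so the filter favoured the call of a difference. Against the floor of 3 counts per library, the limit that a count of 0 allows, SERPINB7 was at least 4.58-fold lower in shHMGA2-1 than in shNC. With no filter on low counts, so that its level did not decide whether it was tested, the edgeR adjusted p of this difference was 2.88e-04. In shHMGA2-2 the log2 difference from shNC was -1.44 (95% interval -2.75 to -0.12, edgeR adjusted p = 0.0558), and it passed with limma (adjusted p = 0.0282) or without shHMGA2-1 replicate 1 (edgeR adjusted p = 0.0440) or 2 (0.0445). It was at least 1.66-fold higher in shHMGA2-2 than in shHMGA2-1 (edgeR adjusted p = 0.0359). That call was lost with the replicate number as a block (edgeR adjusted p = 0.0506), with no filter on low counts (0.0532), with DESeq2 (0.161), with limma at a pseudocount of 1 FPKM (0.107, but 0.0162 at 0.1 FPKM), and without shHMGA2-1 replicate 1 (edgeR adjusted p = 0.171), shHMGA2-2 replicate 1 (0.0989) or shHMGA2-2 replicate 2 (0.0979). SERPINB2 (PAI-2), an inhibitor of urokinase, was counted 4 and 2 times in shNC and never (0 counts) in the 4 knockdown libraries, so that no change was detectable at this depth. The floor covers counting error only and stood for 0.175 to 0.182 CPM, which are counts scaled to the library total.

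SERPINB7, SERPINB2 and SERPINB8 lie in the SERPINB cluster of chromosome 18, in the order SERPINB5, SERPINB12, SERPINB13, SERPINB4, SERPINB11, SERPINB3, SERPINB7, SERPINB2, SERPINB10 and SERPINB8. The 7 genes of this cluster that are not members had 0 counts in all 6 libraries. SERPINB8, at the end of the cluster, was the member of it with by far the most counts in these cells. SERPINB9 lies on chromosome 6 between SERPINB1, an inhibitor of neutrophil proteases, and SERPINB6. The neighbours did not move with it. SERPINB1 went from 1403 and 1287 counts in shNC to 1610 and 1653 (shHMGA2-1) and 828 and 944 (shHMGA2-2), and fell in shHMGA2-2 by 0.68 on the log2 scale (edgeR adjusted p = 1.95e-07). SERPINB6 had 2088 and 2127, 2474 and 2450, and 1197 and 1234 counts in the same order, and fell in shHMGA2-2 by 0.87 (edgeR adjusted p = 2.07e-10). In shHMGA2-1 the log2 differences of SERPINB1 and SERPINB6 were 0.20 (edgeR adjusted p = 0.0622) and 0.15 (0.118), while SERPINB9 rose.

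**Figure D2:**
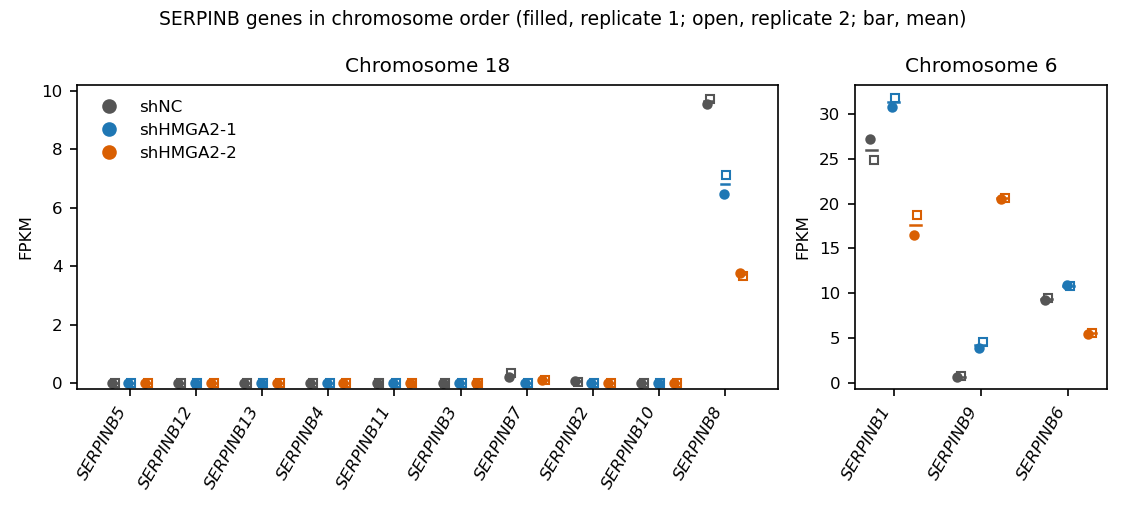
FPKM of the SERPINB genes of chromosomes 18 and 6 in their order along the chromosome (not to distance), with filled and open points for replicates 1 and 2 of shNC, shHMGA2-1 and shHMGA2-2 and bars for means. On chromosome 18 SERPINB8 is the gene clearly above 0, and on chromosome 6 SERPINB9 rises where SERPINB1 and SERPINB6 are lowest, in shHMGA2-2.

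TFPI2, a secreted Kunitz-type inhibitor of plasmin and other serine proteases (ENSG00000105825, chromosome 7, 93885396 to 93890753, minus strand), was higher in both knockdown lines. The shNC libraries held 256 and 238 of its counts, those of shHMGA2-1 302 and 394, and those of shHMGA2-2 376 and 435. All knockdown values lay above those of shNC, and the knockdown lines overlapped each other. TFPI2 rose 1.55-fold in shHMGA2-2 (log2 fold change 0.63, standard error 0.13, edgeR adjusted p = 2.42e-04). In shHMGA2-1 it was 1.34-fold higher (log2 fold change 0.42, standard error 0.13, edgeR adjusted p = 0.0190). The shHMGA2-1 difference did not pass with DESeq2 (adjusted p = 0.112) or limma (0.0587), or without shNC replicate 1 (edgeR adjusted p = 0.0707), shNC replicate 2 (0.162) or shHMGA2-1 replicate 2, where it was 0.20 (0.296). The log2 difference of 0.22 between the knockdown lines had a 95% interval from -0.05 to 0.48 (edgeR adjusted p = 0.168), and it was 0.44 (0.00701) without shHMGA2-1 replicate 2.

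Compared per length, the members kept PLAU at the top in all 3 lines but changed order below it. In shNC the order by FPKM was PLAU, PLAUR, SERPINB8, TFPI2, PLAT, SERPINE2, SERPINB9, SERPINB7 and SERPINB2, and no 2 neighbours overlapped in their libraries. SERPINB9 had rank 7 in shNC, rank 5 in shHMGA2-1 and rank 2 in shHMGA2-2, where its 20.5 and 20.6 FPKM exceeded the 16.4 and 16.9 FPKM of PLAUR. SERPINB8 had rank 3, 4 and 5 in the same order of lines. TFPI2 lay above SERPINB8 in both knockdown lines, and SERPINE2 lay above PLAT in shHMGA2-2. Only SERPINB7 and SERPINB2 in shHMGA2-1 were neighbours whose values overlapped.

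Counted over the set, 7 of the 8 genes tested had an adjusted p under 0.05 in shHMGA2-1 against shNC by edgeR's quasi-likelihood test (3 higher and 4 lower), where 33.5% of all 16110 genes tested did. In shHMGA2-2 against shNC there were 6 of 8 (3 higher and 3 lower), beside 58.8% of all genes. A change of at least 2-fold as well was seen for PLAU, SERPINB9 and SERPINB7 in shHMGA2-1, 3 of 8 beside 8.49% of all genes. Without SERPINB7, whose call the filter favoured, the count was 2 of 7. PLAU and SERPINB9 were higher, beside 4.89% of all genes, and SERPINB7 was lower, beside 3.59%. In shHMGA2-2 the genes past both thresholds were PLAU and SERPINB9, which were higher, and SERPINB8, which was lower. These were 3 of 8 beside 21.3% of all genes, of which 11.7% were higher and 9.65% lower. The median log2 fold change of the 8 genes was -0.19 in shHMGA2-1 and -0.23 in shHMGA2-2, beside 0.01 and 0.03 over all genes tested. The filter favoured the call of SERPINB7, which was tested only through its counts in shNC, and the medians include it. Without SERPINB7, 6 of 7 genes passed by adjusted p in each line, and 2 of 7 in shHMGA2-1 and 3 of 7 in shHMGA2-2 also changed at least 2-fold. Both comparisons use the same shNC libraries.

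**Figure D3:**
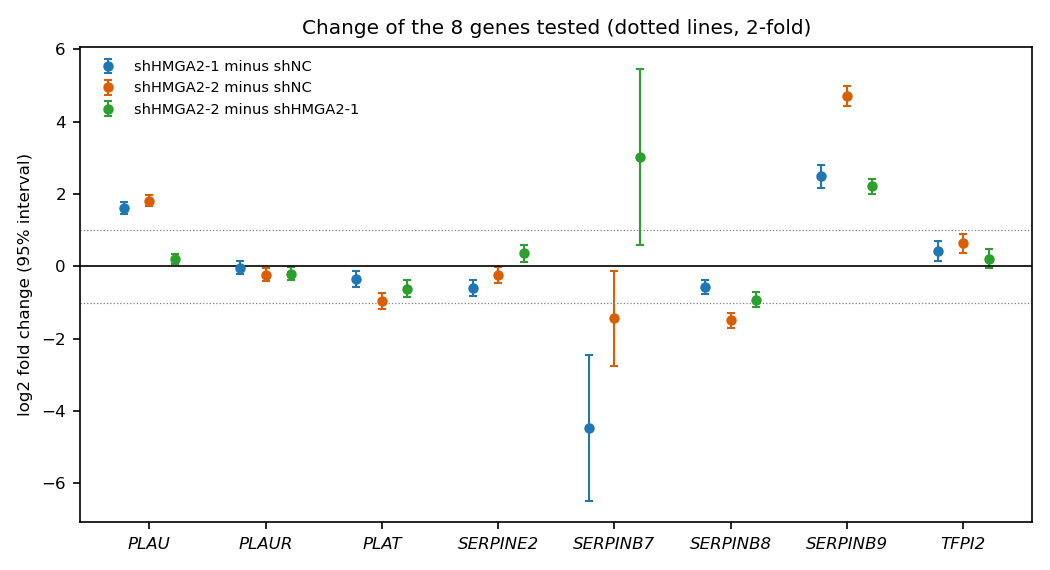
Log2 fold change of the 8 genes tested, with 95% intervals from edgeR's model with 3 groups, for shHMGA2-1 minus shNC, shHMGA2-2 minus shNC and shHMGA2-2 minus shHMGA2-1; dotted lines mark a 2-fold change. PLAU (1.61 and 1.82) and SERPINB9 (2.49 and 4.70) lie above the upper dotted line in both knockdown lines, and SERPINB7, with at most 16 counts in a library, has wide intervals.

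Between the knockdown lines, 6 of the 8 genes tested differed by edgeR's adjusted p, beside 50.2% of all genes. PLAU, SERPINE2, SERPINB7 and SERPINB9 were higher in shHMGA2-2, and PLAT and SERPINB8 were lower. SERPINB7 and SERPINB9 also differed at least 2-fold by the fitted fold change, which made 2 of 8, or 1 of 7 without SERPINB7, beside 15.1% of all genes. For SERPINB7 the counts themselves bound the difference only at 1.66-fold or more. Both were higher in shHMGA2-2, beside 7.83% of all genes, and none was lower by that fold, beside 7.27%, since PLAT and SERPINB8 were lower by less. The median of the 8 genes was 0.21, beside -0.0018 over all genes. With the 4 knockdown libraries as a single group against shNC, the spread includes the difference between the knockdown lines, and the biological coefficient of variation was 0.291 in place of 0.0583. That model takes the 4 libraries as independent, although they are pairs from the knockdown lines, so its p-values may be too small. PLAU alone passed in this pooled comparison, with a log2 fold change of 1.72 (standard error 0.13, edgeR adjusted p = 0.00388). It was 1 of 8 by adjusted p beside 5.26% of all genes, and 1 of 8 past both thresholds beside 3.09%. Without shNC replicate 1 or 2 the edgeR adjusted p of PLAU rose to 0.0847 and 0.0820. SERPINB9, at 3.99 (standard error 0.94), had an edgeR adjusted p of 0.0634. The median of the 8 genes was -0.27, beside 0.04 over all genes.

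The other genes of the plasmin system were taken from lists of names. In all these lists, higher and lower genes are those with an edgeR adjusted p under 0.05. Over all genes tested 33.5% passed that in shHMGA2-1 and 58.8% in shHMGA2-2, and no list was tested against these shares. Of 30 other serpins 9 were tested, and 3 were higher in shHMGA2-1 with 6 not passing, while 2 were higher and 2 lower in shHMGA2-2. Their median log2 fold changes were 0.15 and 0.02. SERPING1 (C1 inhibitor) was at 0 in both control libraries, with 30 and 17 counts for shHMGA2-1 and 8 and 6 for shHMGA2-2, at least 7.40-fold and 2.21-fold higher. SERPINA1 (alpha-1 antitrypsin) had 4 and 4, 1 and 0, and 12 and 16 counts in the same order of lines. SERPING1, SERPINA1, and SPINT1, HGFAC and F12 of the lists described next passed the filter on low counts through the knockdown libraries and not on those of shNC, so the filter favoured their calls, and the counts of higher genes include them. Plasminogen itself (PLG) had 0 counts in all 6 libraries. Of 11 genes for plasminogen, its receptors and binding proteins 9 were tested, of which 1 was higher and 4 were lower in shHMGA2-1, and 3 were higher and 6 lower in shHMGA2-2. There ITGB1 and ITGB3, beta subunits of integrins, fell by 1.47 (edgeR adjusted p = 1.10e-16) and 3.32 (2.31e-05) on the log2 scale. ITGB3 was scarce, with 33 and 26 counts in shNC and 4 and 2 in shHMGA2-2, whereas ITGB1 had 63173 and 63367 in shNC. The median log2 fold change of that list was -0.22 in shHMGA2-1 and -0.67 in shHMGA2-2, beside the medians of all genes given above.

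The list of receptors that clear complexes of activators with their inhibitors moved both ways. It also holds LRPAP1, which is not itself a receptor and rose in shHMGA2-2 by 1.12 on the log2 scale (edgeR adjusted p = 1.41e-11). Of 10 genes 9 were tested, and 2 were higher and 3 lower in shHMGA2-1, and 5 were higher and 2 lower in shHMGA2-2 (medians 0.08 and 0.46). Over all genes tested 33.5% and 58.8% were called. LRP1, the main endocytic receptor of such complexes, fell by 0.77 in shHMGA2-1 (edgeR adjusted p = 9.82e-08) and by 2.00 in shHMGA2-2 (1.94e-15) on the log2 scale. VLDLR, which also takes up urokinase complexes, rose by 2.07 (edgeR adjusted p = 3.11e-13) and 1.69 (2.53e-12). SORL1 went from 31 and 31 counts in shNC to 24 and 49 (shHMGA2-1) and 737 and 738 (shHMGA2-2), where it rose by 4.49 (edgeR adjusted p = 3.17e-16). Its difference in shHMGA2-1 was 0.16 (edgeR adjusted p = 0.725).

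Of 9 further genes listed as Kunitz-type and other inhibitors 6 were tested. Of these 3 were higher and 1 lower in shHMGA2-1, and 1 was higher and 2 lower in shHMGA2-2 (medians 0.23 and 0.06). RECK, which is not of Kunitz type, was among those higher in shHMGA2-1 (log2 fold change 0.79, edgeR adjusted p = 5.36e-06). The shares over all genes tested, 33.5% and 58.8%, stand beside these counts and those of the lists that follow. SPINT1 was at 0 in both control libraries, with 9 and 6 counts for shHMGA2-1 and 19 and 27 for shHMGA2-2, at least 2.36-fold and 7.23-fold higher. SPINT2 fell by 0.42 (edgeR adjusted p = 4.06e-04) and 2.03 (3.58e-15) on the log2 scale; both encode inhibitors of hepatocyte growth factor activator. Among 14 proteases that activate or work beside pro-urokinase, 3 of the 8 tested were higher and 3 lower in shHMGA2-1, and 4 were higher and 2 lower in shHMGA2-2. Their medians were 0.26, or 0.20 with HGFAC at its bound, and -0.01. The cathepsin gene CTSL rose by 0.44 (edgeR adjusted p = 2.71e-05) and 1.21 (1.95e-13), whereas CTSD fell by 1.11 in shHMGA2-1 (1.37e-10) and rose by 0.42 in shHMGA2-2 (8.21e-05). F12, coagulation factor XII, had 12 and 9 counts in shNC, 52 and 30 in the shHMGA2-1 libraries and 40 and 39 in those of shHMGA2-2. HGFAC, at 0 counts in shNC, was at least 1.10-fold and 5.66-fold higher. In the 11 genes of the tissue factor pathway and the protease-activated receptors, 1 of the 7 tested was higher and 4 were lower in each knockdown line (medians -0.26 and -0.46). F2RL2, a protease-activated receptor, fell in both, with log2 fold changes of -2.23 (edgeR adjusted p = 1.40e-09) and -4.01 (3.45e-13). PROS1, the anticoagulant protein S, fell too, with -0.80 (edgeR adjusted p = 4.74e-07) and -1.55 (2.69e-12).

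**Figure D4:**
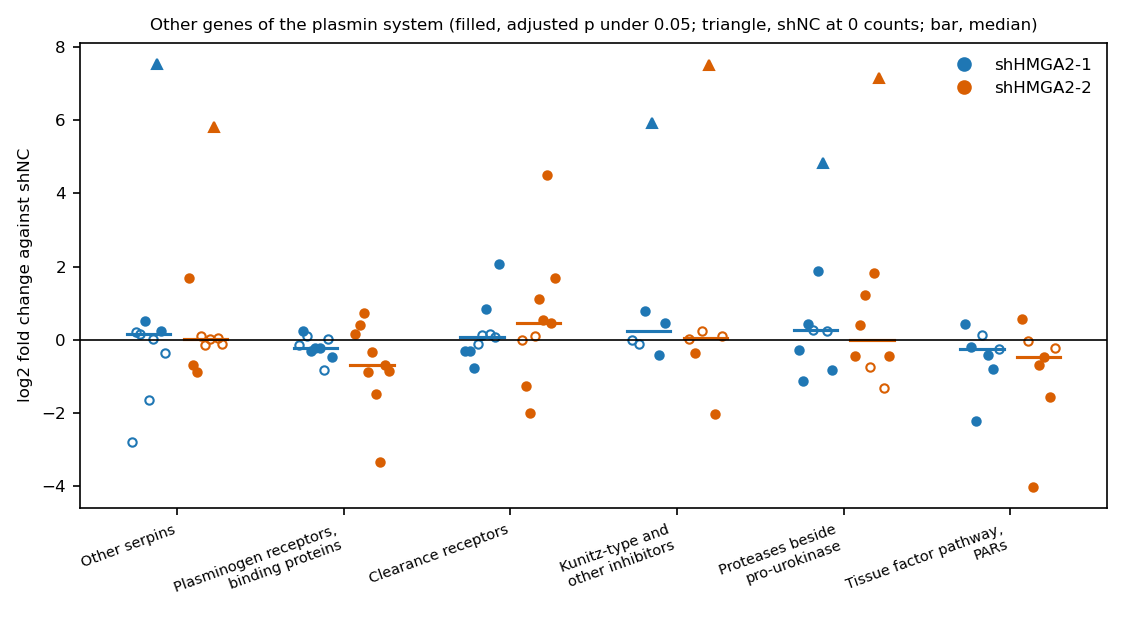
Log2 fold change against shNC of the tested genes of 6 lists in shHMGA2-1 (blue) and shHMGA2-2 (orange); filled symbols have an edgeR adjusted p under 0.05, triangles are genes with 0 counts in shNC, whose fitted fold change is no bound, and bars are list medians. Points lie on both sides of 0 in every list, and the list of plasminogen, its receptors and binding proteins has medians of -0.22 and -0.67.

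Genes with the most similar profile over the 6 libraries were sought for the 4 members past both thresholds in a comparison of lines, by the Euclidean distance between centred log2 CPM among 16109 other genes. They were HSD11B1L (distance 0.251) and SLFN13 (0.289) for PLAU, whose log2 fold changes were 1.75 and 1.74 in shHMGA2-1 and 2.10 and 1.89 in shHMGA2-2. For SERPINB8 they were CCDC50 (0.0814) and TMEM236 (0.0895), with -0.60 and -0.56 in shHMGA2-1 and -1.46 and -1.54 in shHMGA2-2. For SERPINB9 the nearest were FBXO2 (0.398) and IGF2 (0.563), both near 0 in the control line. FBXO2 averaged 0.0307, 0.64 and 3.81 CPM in shNC, shHMGA2-1 and shHMGA2-2, and IGF2 averaged 0, 0.407 and 2.67 CPM. TGFA (0.577) and ARHGAP18 (0.612) were nearest to SERPINB7.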

How the data were processed

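RNA from 3 MDA-MB-231 lines, 2 libraries each, had been sequenced after mRNA capture. The authors deposited 1 table that gives each gene's raw count and FPKM in every library, where FPKM is the count divided by exonic length and library total. FPKM recomputed from the counts agreed within 0.005 for 100% of values. The submitters' processing notes name HISAT2 version 2.2.1, HTSeq version 0.6.1 and GRCh38.p13. Which annotation and strand setting were used is not given in the sources used here. Groups and replicate numbers came from the sample titles. Nothing says that samples of a line came from separate cultures, so p-values measure only the spread between these samples, which may be technical. Sample columns left out numbered 0.

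Counts were tested with edgeR version 4.0.16 in R version 4.3.3: TMM factors (0.958 to 1.05), filterByExpr by group (minimum count 10), the quasi-likelihood test and Benjamini-Hochberg adjustment over 16110 genes. Calls needed an adjusted p under 0.05, and where stated also a change of at least 2-fold. A model with 3 groups gave the comparisons of lines, and a model with 2 groups compared the 4 knockdown libraries with shNC. FPKM served to compare genes, and the ratios between members were chosen after the values were seen. Simulated counts with known changes were used to test the scripts. Alternatives were DESeq2 version 1.42.0, upper quartile scaling, no filter, only genes averaging 1 FPKM or more, limma version 3.58.1 on log2(FPKM + 1) and log2(FPKM + 0.1), the replicate number as a block, the mean of the line contrasts, and each library left out. Promoters were scanned with python version 3.11.15.

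Members and lists were chosen with earlier results of these data known. Named genes were all members, HMGA2, up to 4 genes per list with the largest change past both thresholds, SERPINB genes within 1 Mb of a SERPINB member, genes overlapping a member and the 2 genes nearest in profile. PLG was named outside this rule, and a few genes that the rule or the lists hold are not reported here. The result of every marker list is given: of tested basal and mesenchymal markers, 1 was higher and 5 lower of 7 in each knockdown line. Luminal markers summed to 63.6 to 65.1 FPKM in shNC, 59.7 to 68.0 in shHMGA2-1 and 80.2 to 86.7 in shHMGA2-2. Of 7 tested, 2 were higher and 3 lower in shHMGA2-1, and 3 were higher and 2 lower in shHMGA2-2. Higher in shHMGA2-2 were KRT8 (mean 28.5 FPKM, 11.0 in shNC), GATA3 (log2 fold change 2.47) and ERBB2 (0.45). FOXA1 (-5.11) and KRT19 (-2.46) were lower there. Endothelial markers summed to 0.68 to 0.74, 0.48 to 0.62 and 0.46 to 0.62 FPKM in the same order of lines. Fibroblast markers summed to 0.55 to 0.79, 1.30 to 1.62 and 1.08 to 1.12 FPKM.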

Additional observations from a re-analysis of the deposited data

Results flagged for a closer look

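The change of 6 members differed between shHMGA2-1 and shHMGA2-2 by the direct contrast of the lines in edgeR's model with 3 groups. Higher in shHMGA2-2 were SERPINB9 by a log2 difference of 2.21 (edgeR adjusted p = 7.32e-15), SERPINB7 by 3.03 (0.0359), SERPINE2 by 0.37 (0.00868) and PLAU by 0.21 (0.0173). SERPINB8, at -0.92 (edgeR adjusted p = 4.24e-08), and PLAT, at -0.62 (6.29e-05), were lower in shHMGA2-2. The value for SERPINB7 is a fitted one from 0 and 1 counts in shHMGA2-1 and is no bound. For SERPINB9, SERPINB8, PLAT and PLAU the line further from shNC was shHMGA2-2, in which HMGA2 was also lower, whereas for SERPINE2 and SERPINB7 it was shHMGA2-1. Whether the strength of knockdown or another property of the lines goes with these differences was not tested.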

How the results depend on the processing

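Over 420 alternative values of the log2 fold changes of the 8 members tested in 4 comparisons (32 results), 368 kept their direction and their side of the threshold, 30 lost a call, 17 gained one and 5 changed sign. The sign changes were all in PLAUR in shHMGA2-1 against shNC, which was not called in any setting: 0.0303 with upper quartile scaling, 0.0296 and 0.0310 with limma at pseudocounts of 1 and 0.1, and -0.13 to 0.0672 with a library left out (0.0672 without shNC replicate 2, 0.0476 without shHMGA2-1 replicate 2). The count of members past both thresholds stayed within 1.5 times in shHMGA2-1 (3 to 3 with each library left out) and in shHMGA2-2 (3 to 4). Between the knockdown lines it went from 2 to 1, SERPINB9, with DESeq2, no filter on low counts, a mean FPKM of at least 1, limma with either pseudocount and the replicate number as a block, and was 1 to 2 with a library left out. A mean FPKM of at least 1 removed SERPINB7 from the genes tested, and for the other settings the cause was not tested. With all knockdown libraries against shNC it went from 1 to 2 with DESeq2 or no filter (PLAU and SERPINB9), to 4 with the mean of the line contrasts (PLAU, SERPINB7, SERPINB8 and SERPINB9), and was 0 to 1 with a library left out. A left-out library leaves its line with 1 sample, which is assumed to vary like the others.

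Over all genes, calls past both thresholds numbered 1367 in shHMGA2-1, 3432 in shHMGA2-2, 2432 between the knockdown lines and 498 with the knockdown libraries pooled. They were 294, 1226, 785 and 192 with limma on log2(FPKM + 1), and 579, 1729, 1168 and 291 among genes averaging 1 FPKM or more. The pooled comparison gave 1028 with DESeq2, 138 with the replicate block and 4 to 480 with a library left out. Deviations of same-numbered libraries correlated at -0.0218, 0.00213 and -0.10 between lines. With a single pair of libraries per line, such values cannot exclude a shared batch, and the labels name none. The block changed no call of a member other than that of SERPINB7 between the knockdown lines. Depth limits SERPINB2 and SERPINB7, each under 20 counts in every library.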

Other observations

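More genes of blood coagulation at the cell surface were looked at after their values were seen. They belong to the tissue factor list and are part of its counts above. F3 (tissue factor, the cellular starter of coagulation) averaged 165 FPKM in shNC, 187 in shHMGA2-1 and 112 in shHMGA2-2, and fell in shHMGA2-2 by 0.67 on the log2 scale (edgeR adjusted p = 9.32e-10). PROCR, the endothelial protein C receptor, fell by 0.40 (edgeR adjusted p = 0.00544) in shHMGA2-1 and by 0.46 (8.29e-04) in shHMGA2-2. The thrombin receptor F2R rose by 0.44 (edgeR adjusted p = 3.55e-04) and 0.57 (5.49e-06), opposite to F2RL2. For thrombomodulin (THBD), the log2 differences were -0.26 (edgeR adjusted p = 0.102) and -0.21 (0.127).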
